A study of Sus scrofa with 8 samples.

Results

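Steroid receptors and the proteins that assist or restrain them were followed in the endometrium, the inner lining of the uterus, of 8 pregnant pigs. The 7 genes are ESR1 and ESR2, which encode estrogen receptors alpha and beta, PGR, the nuclear progesterone receptor, PGRMC1, a membrane-associated protein linked to progesterone signaling, NR3C1, the glucocorticoid receptor, NCOR1, a nuclear receptor corepressor, and NCOA1, a coactivator. They were represented by 20 of the 23999 probesets tested, a probeset being a group of short probes designed against a porcine transcript. All probesets given 1 of these gene names were kept: 17 carried the name in the annotation of the array and 3 carried it only in the study's supplementary list of probesets that it had called between the breeds. Those 3 entered through a call made on these same arrays, so their values are a description with no test. No sequence of these probesets was analysed here, and the strand that a probeset reads was not determined, so a probeset is described by the gene name it carries and may not report the sense transcript of that gene.

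Endometrium came from 4 Meishan gilts (young female pigs) and was compared with that of 4 Yorkshire gilts. All gilts had been mated naturally to boars of their own breed and were sampled on day 12 of gestation, and by the study's account tissue was used only where every conceptus in the uterus had reached the filamentous stage. RNA of the whole tissue of each gilt was hybridized to its own Affymetrix porcine array in a single colour. Breed of dam, conceptus and sire were the same within a uterus, so maternal and conceptus contributions to a breed difference cannot be told apart, and there was no nonpregnant or other-day group.

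Steroid receptors are ligand-activated transcription factors. After binding hormone they leave a chaperone complex, attach to DNA and recruit coactivators such as NCOA1, which open chromatin through histone acetylation, while corepressors such as NCOR1 bring histone deacetylases to genes that are to stay silent. In the pig, estrogen released by the elongating conceptus is the signal for maintenance of the corpus luteum, and the epithelium of the progestational uterus loses progesterone receptor while the stroma keeps it.

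The deposited signals were linear and scaled by the authors to a trimmed mean of 500.1 on every array. Signals below are given on that linear scale after centring every array on the median of its 23999 tested probesets, breed means are geometric means of 4 gilts, and log2 differences are Meishan minus Yorkshire with the standard error (SE) of limma. A probeset was called at a Benjamini-Hochberg adjusted p under 0.1 over all 23999 probesets. By that rule 218 probesets, or 0.908%, were called, of which 97 (0.404%) were higher and 121 (0.504%) lower in Meishan endometrium. The median log2 difference of all probesets was 0.02, and probesets sorted into 10 equal groups by brightness had medians of 0.46 in the dimmest and -0.04 in the brightest, with the lowest, -0.11, in the group next to the brightest. Median signals as deposited were 168 to 195 on Meishan arrays, against 171 to 187 on Yorkshire arrays, and the hybridization spike-ins, which are added to the sample and do not come from the tissue, were brighter by 1.00 on the log2 scale on Meishan arrays (exact permutation test, two-sided, p = 0.0286, the smallest that 4 against 4 allows). The log2 ratio of 3' to 5' control probesets of GAPDH was 1.77 to 2.84 on Meishan arrays, against 1.76 to 2.51 on Yorkshire arrays.

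None of the 7 genes had a probeset called between the breeds by the rule used here. Of the 17 array-named probesets, 0 were called, beside 0.908% of all probesets, and the lowest adjusted p was 0.101. At an unadjusted p under 0.05 there were 4, beside 14.8% of all probesets, and 3 of them were lower in Meishan, beside 6.96% of all probesets. These 4 (PGR, NR3C1 probeset 2, NCOR1 probeset 1 and NCOA1 probeset 5) are also the array-named probesets found in the part of the study's list used here, which may be shortened. The study thus did call them, by its own test and at a q-value under 0.1. Gilts of the breeds did not overlap at 2 of the 17, beside 10.1% of all probesets (5.01% with Meishan above and 5.09% with Yorkshire above). These 2 were the PGR probeset and 1 probeset of NCOR1, and in both all 4 Yorkshire gilts lay above all 4 Meishan gilts. The median log2 difference of the 17 was -0.08, with 8 toward Meishan and 9 toward Yorkshire, and 12 were under 0.5 in size.

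**Figure D1:**
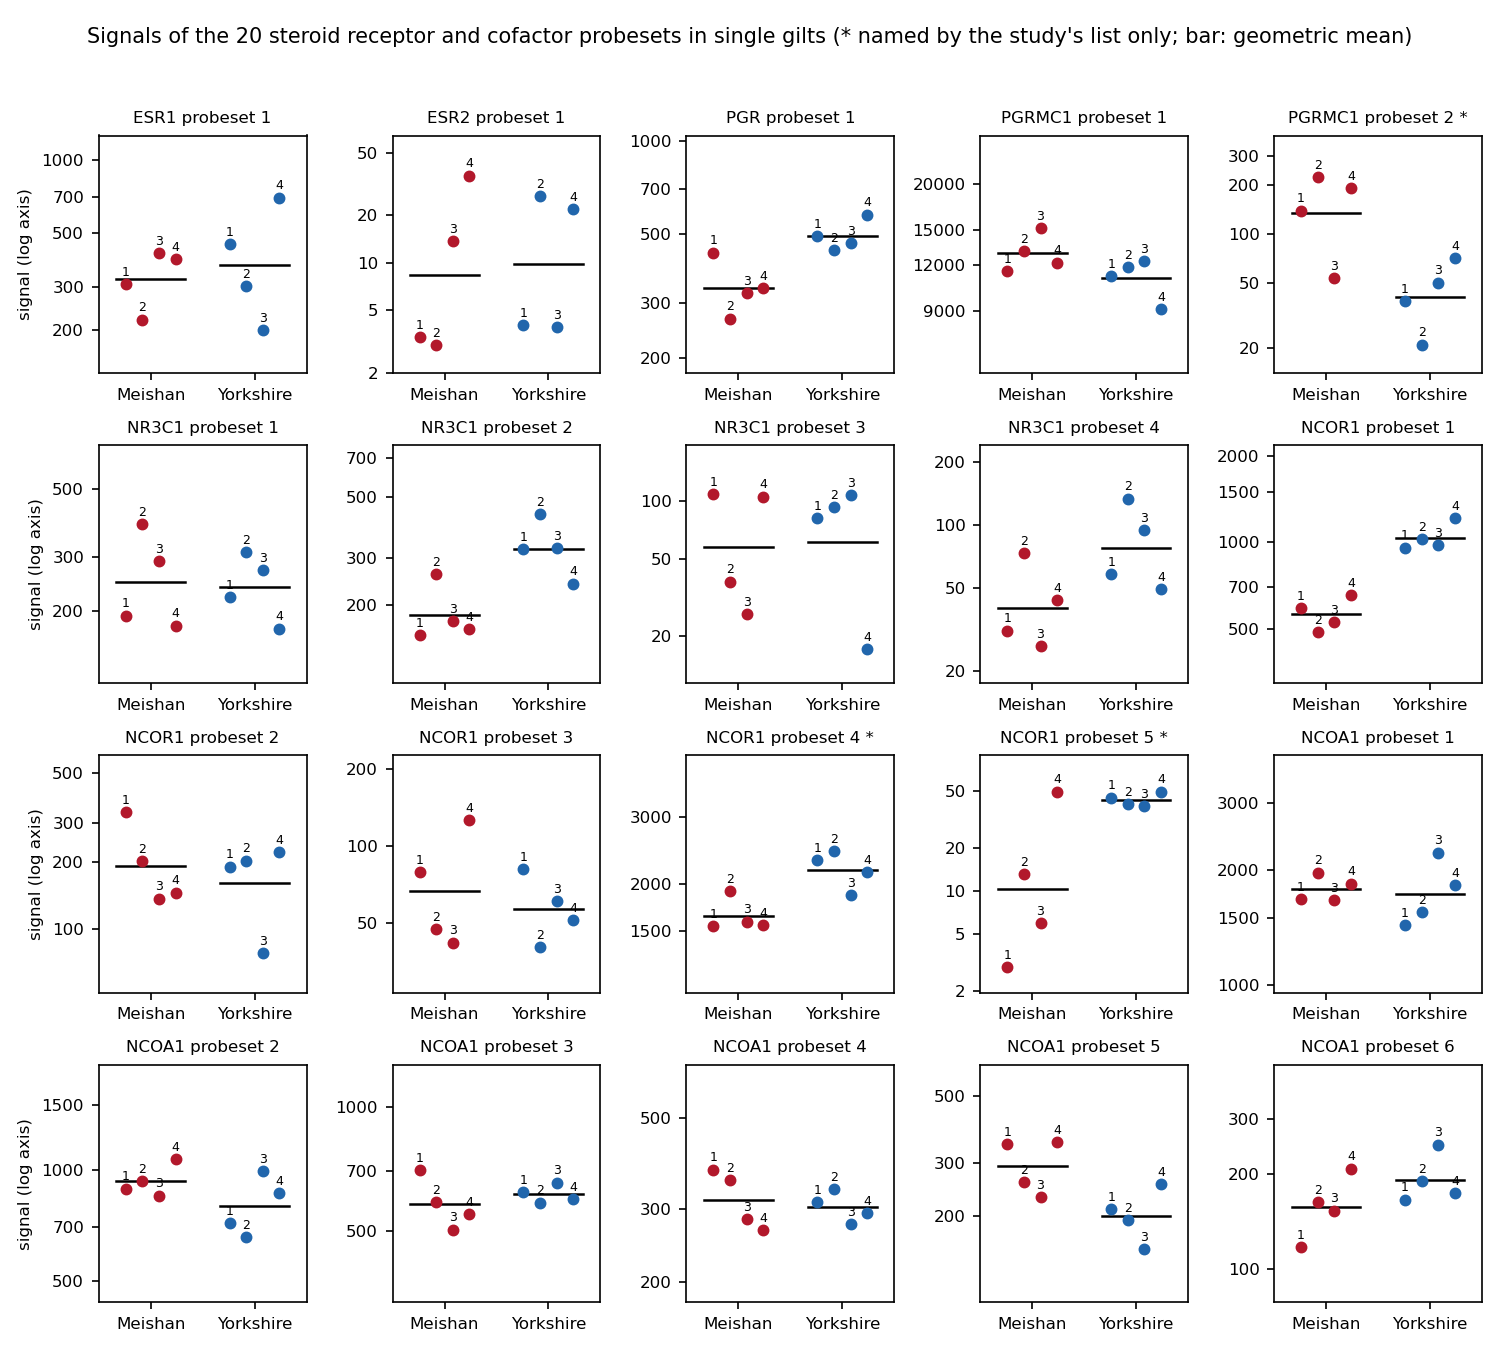
Signal of each of the 20 probesets in each gilt, on log axes that differ between panels, with Meishan gilts (red) left of Yorkshire gilts (blue), numbers giving the replicate and bars the geometric mean of 4 gilts. At the PGR probeset and at NCOR1 probeset 1 the 4 Yorkshire gilts all lie above the 4 Meishan gilts, and ESR2 is below 64 in all 8 gilts.

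The signal of ESR1 varied more among gilts of 1 breed than between the breeds. The ESR1 probeset (Ssc.16144.1.S1_at) had signals of 308, 221, 415 and 392 in the 4 Meishan gilts, against 450, 303, 200 and 698 in the 4 Yorkshire gilts. The Yorkshire gilts held both the highest and the lowest value, and the breeds overlapped fully. The breed means were 325 in Meishan and 371 in Yorkshire, a log2 difference of -0.19 (SE 0.40, 95% interval from -1.12 to 0.74; limma adjusted p = 0.862). The SD on the log2 scale was 0.41 among Meishan gilts and 0.77 among Yorkshire gilts, and the interval reaches past 0.5 in both directions.

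ESR2 was near the background of the array. Its probeset (Ssc.16370.1.S1_at) gave 3.36, 2.98, 13.7 and 35.7 in Meishan gilts, against 4.01, 26.5, 3.90 and 21.8 in Yorkshire gilts. All 8 values lay below 64, the level taken here as near background, and each breed held both values under 5 and values above 20. The log2 difference of -0.22 (SE 0.99, 95% interval from -2.51 to 2.07; limma adjusted p = 0.941) was smaller than its SE. Dim probesets as a class did not lie at 0 either, since those of like brightness had a median log2 difference of 0.46.

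The progesterone receptor had lower signals in every Meishan gilt than in any Yorkshire gilt, but the difference was not called. The single PGR probeset (Ssc.15997.1.S1_at) gave 437, 268, 323 and 336 in Meishan gilts, against 495, 446, 468 and 579 in Yorkshire gilts. The gap between the breeds was small, since the highest Meishan gilt, 437, lay next to the lowest Yorkshire gilt, 446. The means were 336 in Meishan and 495 in Yorkshire, 1.47-fold higher in Yorkshire, with a log2 difference of -0.56 (SE 0.20, 95% interval from -1.03 to -0.09; limma unadjusted p = 0.0246, adjusted p = 0.263). Probesets of like brightness had a median log2 difference of -0.07. In a whole-tissue sample fewer cells of a type and less RNA per cell cannot be told apart, and this holds for each gene described here.

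PGRMC1 gave high signals in all gilts and showed no breed difference beyond the spread of the gilts. Its array-named probeset (Ssc.9819.1.S1_at) gave 11556, 13126, 15156 and 12185 in Meishan gilts, against 11207, 11824, 12319 and 9076 in Yorkshire gilts. Values overlapped, with the lowest in Yorkshire 4, and the log2 difference was 0.23 (SE 0.18, 95% interval from -0.19 to 0.65; limma adjusted p = 0.604). A second probeset (Ssc.9822.1.A1_at), named PGRMC1 only by the study's list and thus chosen for its breed difference, gave 139, 224, 53.6 and 192 in Meishan gilts, against 38.7, 20.9, 50.3 and 71.0 in Yorkshire gilts. It was higher in Meishan by 1.70 on the log2 scale, yet Meishan 3 fell among the Yorkshire gilts. The breed difference at the array-named probeset minus that at this dim one was -1.47, and which of them reports PGRMC1 transcript cannot be read from the signals.

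The glucocorticoid receptor, which mediates the actions of cortisol, carried its name at 4 probesets, with log2 differences that ran from -0.95 to 0.06. NR3C1 probeset 1 (Ssc.15952.1.S1_at), the brightest by its mean over the 8 gilts, gave 194, 384, 291 and 180 in Meishan gilts, against 222, 312, 272 and 176 in Yorkshire gilts. These values overlapped, with a log2 difference of 0.06 (SE 0.31, 95% interval from -0.64 to 0.76; limma adjusted p = 0.948).

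NR3C1 probeset 2 (Ssc.15928.1.S1_at) was lower in Meishan gilts, at 155, 261, 175 and 163, against 322, 433, 325 and 240 in Yorkshire gilts. Only Meishan 2, the highest of its breed, reached above the lowest Yorkshire gilt. The means, 184 in Meishan gilts, against 323 in Yorkshire gilts, were apart by -0.81 on the log2 scale (SE 0.25, 95% interval from -1.39 to -0.22; limma unadjusted p = 0.0128, adjusted p = 0.210), or 1.75-fold, and this probeset is in the study's list.

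Of the remaining NR3C1 probesets, probeset 4 (Ssc.15952.1.A1_at) gave 31.3, 73.5, 26.4 and 43.7 in Meishan gilts, against 58.4, 134, 94.6 and 49.5 in Yorkshire gilts, with a log2 difference of -0.95 (SE 0.42; limma adjusted p = 0.353). Signals this low were near background, since 1 of 4 Meishan and 2 of 4 Yorkshire gilts reached 64. Probeset 3 (Ssc.15928.1.A1_at) gave 109, 38.2, 25.8 and 106 in Meishan gilts, against 81.7, 93.6, 108 and 17.0 in Yorkshire gilts. Its log2 difference was -0.08 (SE 0.72; limma adjusted p = 0.972), and Yorkshire 4 stood far below the other Yorkshire gilts.

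NCOR1, which carries histone deacetylase 3 to unliganded nuclear receptors, held the clearest separation of the breeds among the 20 probesets. NCOR1 probeset 1 (Ssc.26588.1.S1_at) gave 590, 485, 528 and 655 in Meishan gilts, against 959, 1027, 979 and 1214 in Yorkshire gilts. No Meishan gilt came near the lowest Yorkshire gilt, and within each breed the values stayed close, with an SD of 0.19 in Meishan and 0.15 in Yorkshire on the log2 scale. The means were 561 in Meishan and 1040.2 in Yorkshire, 1.85-fold higher in Yorkshire, and the log2 difference was -0.89 (SE 0.18, 95% interval from -1.30 to -0.48; limma unadjusted p = 0.00101, adjusted p = 0.101). That adjusted p lies just above the threshold of 0.1, so the probeset was not called. Probesets of like brightness had a median log2 difference of -0.11.

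The other NCOR1 probesets did not share that separation. Probeset 2 (Ssc.26588.2.S1_a_at) gave 336, 202, 137 and 146 in Meishan gilts, against 191, 203, 77.9 and 222 in Yorkshire gilts, and probeset 3 (Ssc.21335.1.S1_at) gave 79.2, 47.6, 42.1 and 126 in Meishan gilts, against 81.5, 40.3, 61.2 and 51.4 in Yorkshire gilts. Both overlapped and leaned toward Meishan, by 0.25 (SE 0.42; limma adjusted p = 0.823) and 0.24 (SE 0.39; limma adjusted p = 0.822) on the log2 scale. A lean of that size is smaller than its own SE.

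The last NCOR1 probesets carry the name only in the study's list, which makes their direction no independent evidence. Probeset 4 (Ssc.21336.1.A1_at), the brightest, gave 1539, 1908, 1584 and 1548 in Meishan gilts, against 2306, 2439, 1864 and 2140 in Yorkshire gilts, a log2 difference of -0.41 in which Meishan 2 lay above Yorkshire 3. Probeset 5 (Ssc.21771.1.A1_at) gave 2.92, 13.1, 5.95 and 49.3 in Meishan gilts, against 44.8, 40.3, 38.9 and 49.3 in Yorkshire gilts. Every value of probeset 5 was under 64, and its log2 difference of -2.07 shrank to -0.27 when signals under 32 were set to 32. The size of its difference was thus set by values under 32 in 3 Meishan gilts.

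**Figure D2:**
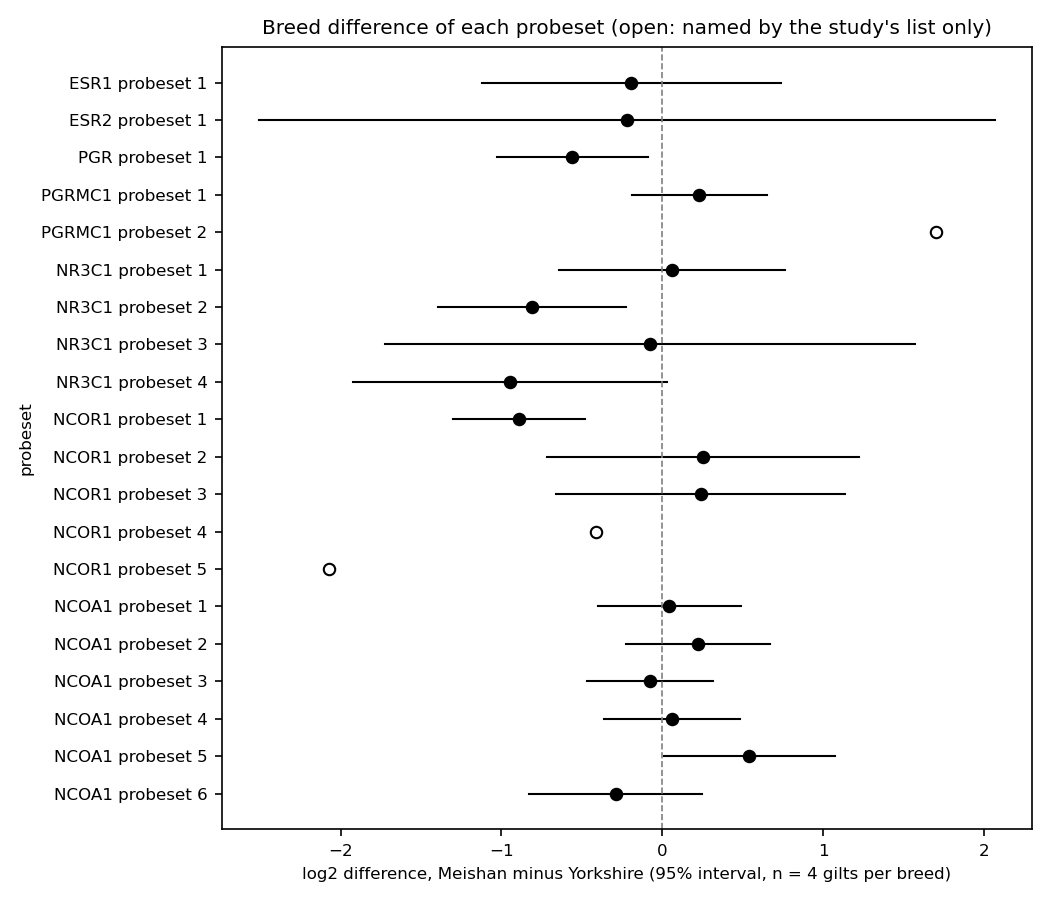
Log2 difference, Meishan minus Yorkshire, of each of the 20 probesets (points) with its 95% interval from limma (bars, n = 4 gilts per breed) for the 17 array-named probesets; open points are the 3 named only by the study's list, drawn with no interval. The intervals of PGR, NR3C1 probeset 2 and NCOR1 probeset 1 lie below 0 and that of NCOA1 probeset 5 lies just above it, at 0.01 to 1.07, before adjustment over all probesets.

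NCOA1, also known as SRC-1, is a p160 coactivator that binds hormone-loaded receptors, and it was represented by 6 array-named probesets. The brightest, probeset 1 (Ssc.1414.1.A1_a_at), gave 1681, 1970, 1670 and 1846 in Meishan gilts, against 1435, 1556, 2225 and 1825 in Yorkshire gilts. Both the lowest and the highest of these came from Yorkshire gilts, and the log2 difference was 0.04 (SE 0.19, 95% interval from -0.40 to 0.49; limma adjusted p = 0.941). The whole interval of this probeset lies within 0.5 of 0 on the log2 scale.

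Probeset 5 (Ssc.31120.2.S1_at), the 1 NCOA1 probeset in the study's list, was read at 346, 260, 231 and 352 in Meishan gilts, against 211, 194, 156 and 256 in Yorkshire gilts. Yorkshire 4 lay above Meishan 3, so the breeds overlapped. Means of 293 in Meishan and 201 in Yorkshire gave a log2 difference of 0.54 (SE 0.23, 95% interval from 0.01 to 1.07; limma unadjusted p = 0.0473, adjusted p = 0.333).

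The remaining NCOA1 probesets overlapped between the breeds. Log2 differences were 0.22 at probeset 2 (Ssc.1414.2.S1_at), -0.08 at probeset 3 (Ssc.31120.1.A1_at), 0.06 at probeset 4 (Ssc.24299.1.S1_at) and -0.29 at probeset 6 (Ssc.1414.1.A1_at), with limma adjusted p-values from 0.609 to 0.910. Signals at probeset 2 ran between 852 and 1072 in Meishan gilts, against 657 to 995 in Yorkshire gilts. Signals at probeset 6 ran between 117 and 208 in Meishan gilts, against 166 to 248 in Yorkshire gilts. Probesets given the name NCOA1 thus leaned to both sides.

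Because 4 of the genes had several probesets, the probesets of a gene were compared with each other. The difference in breed effect was tested in the 24 pairs of array-named probesets of 1 gene by an exact permutation test over gilts (two-sided). The smallest p that 4 against 4 allows, 0.0286, was reached in 6 pairs. In NR3C1 the effect at probeset 1 exceeded that at probeset 2 by 0.87 and that at probeset 4 by 1.01 on the log2 scale. In NCOR1 the effect at probeset 1 differed from that at probeset 2 by -1.15, and the other 3 pairs were of NCOA1. After adjustment over the 24 pairs the smallest p was 0.114, so no pair passed 0.1. These 6 pairs were already at the smallest p that 4 against 4 allows. The adjusted result thus reflects the resolution of the test and does not show that probesets of a gene agree.

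Across the 8 gilts, the likeness between probesets of 1 gene varied widely. Over 32 pairs, including the probesets named by the study's list, Pearson's r ranged from -0.698 to 0.909 with a median of 0.107, and 13 were below 0. Adjusted p-values below count all 32 pairs. Pairs with a probeset named only by the study's list are a description, since such a probeset entered through its breed difference. NR3C1 probesets 2 and 4 were most alike, with r = 0.909 (permutation p = 0.00231, adjusted p = 0.0738) and Spearman's rho = 0.905 (permutation adjusted p = 0.116). Without the 2 gilts farthest from the median at probeset 2, r was 0.807, and for deviations from the breed means it was 0.863. Pairs of NR3C1 had a median r of 0.390, those of NCOR1, with its 2 probesets named only by the study's list, 0.0458 and those of NCOA1 -0.0103. At an adjusted p under 0.1, NR3C1 probesets 2 and 4 were the only pair that passed by r, and no pair passed by rho.

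Genes whose signals over the 8 gilts were most like those of the brightest array-named probeset of each member were looked up among 8011 named probesets with a mean log2 signal of at least 6. These are the top of a long ranking over only 8 points and are given as a description. The pattern of PGR was most like that of CCL14, a chemokine (r = 0.968), PAFAH2, a hydrolase of platelet-activating factor (r = 0.968), and NAE1, a subunit of the NEDD8-activating enzyme (r = 0.966). For deviations from the breed means these values were 0.939, 0.905 and 0.946. The genes were picked by r over the same 8 gilts, so values for deviations are no separate check of likeness within the breeds. NCOR1 probeset 1 was most like RHOU (r = 0.980), RUSC2 (r = 0.976) and APH1A, a subunit of gamma-secretase (r = 0.966). With the same limit, r for deviations from the breed means was 0.943 for RHOU, 0.767 for RUSC2 and 0.922 for APH1A. RUSC2 was itself called as lower in Meishan, by -1.10 on the log2 scale (limma adjusted p = 0.0474).

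The ESR1 probeset was most like ATL3, SEPT7 and a probeset of CDH1, the epithelial cadherin, with r of 0.940, 0.934 and 0.915. For PGRMC1 the genes were MINDY1, CYP3A22 and HS2ST1 (r = 0.973, 0.970 and 0.953), for NR3C1 probeset 1 they were GGNBP2, BHLHE40 and RASGEF1B (r = 0.976, 0.970 and 0.951), and for NCOA1 probeset 1 they were SMARCD2, ZFAND2B and DUSP7 (r = 0.961, 0.948 and 0.945). SMARCD2 is a subunit of a chromatin remodeling complex and BHLHE40 a transcription factor. ESR2, at background in all gilts, was most like DES, TOX4 and P2RX4 (r = 0.958, 0.956 and 0.909), a ranking that carries the noise of a dim probeset.

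**Figure D3:**
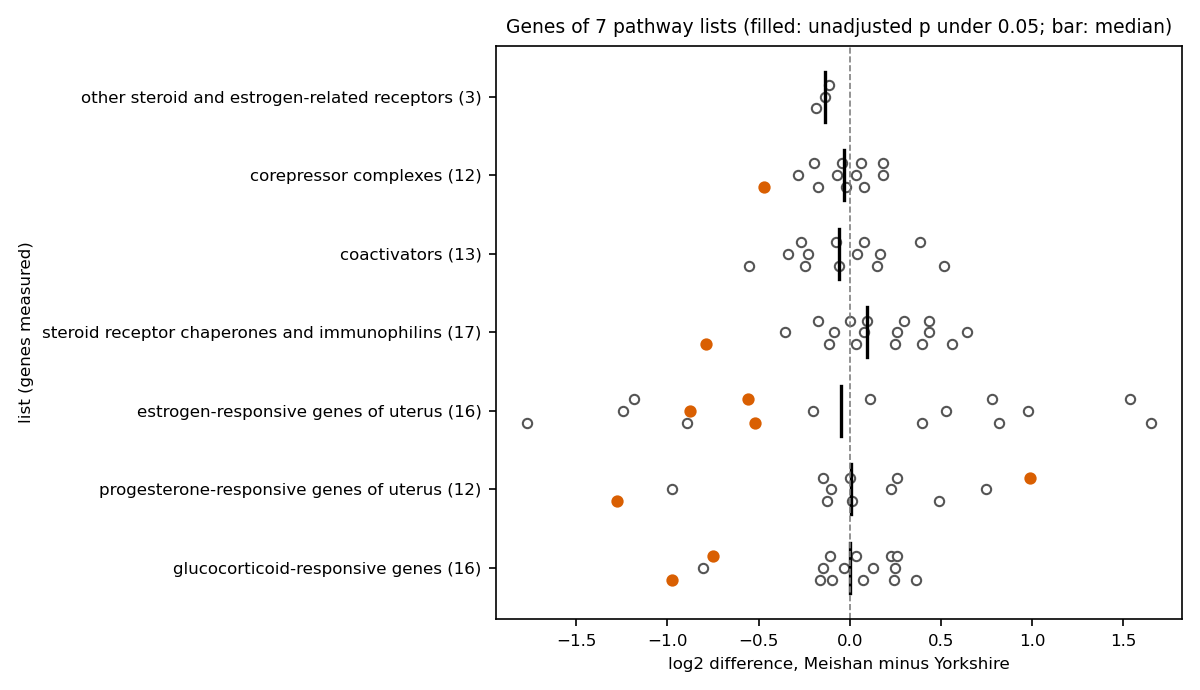
Log2 difference, Meishan minus Yorkshire, of each measured gene of 7 pathway lists (points, 1 per gene at its brightest probeset; number measured in parentheses), with the list median as a bar. Filled points have an unadjusted p under 0.05, which 14.8% of all probesets had. Of the 9 distinct genes filled, 8 lie toward Yorkshire, and PGR, itself a member, is 1 of these 8.

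Genes that work with these receptors were then described in 7 lists, each gene at its brightest named probeset. Of 148 distinct genes, 86 were measured and 0 were called. An unadjusted p under 0.05 was found for 9 (10.5%, beside 14.8% of all probesets), of which 8 were lower in Meishan, while at that p 6.96% of all probesets were lower and 7.79% higher. The breeds did not overlap for 6 (6.98%, beside 10.1%), all with Yorkshire above, which 5.09% of all probesets had. The median log2 difference of the 86 was 0.00, beside 0.02 for all probesets. Each listed gene was taken at its brightest probeset, so shares over all probesets, dim ones included, are of unlike brightness. Direction shifted with brightness, from a median of 0.46 in the dimmest group to -0.04 in the brightest. Some genes named below from these lists have their brightest probeset in the study's list, so the study called it on these same arrays. They are RBBP7, HSP90AA1, HSPA8, STIP1, PGR, RARA, FOXO1, CEBPD and HSD11B1.

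Among partners in corepressor complexes, 12 of 28 genes were measured, with 5 toward Meishan and 7 toward Yorkshire and a median of -0.03. RBBP7, a histone-binding subunit of deacetylase complexes, averaged 6242 in Meishan gilts, against 8641 in Yorkshire gilts (log2 difference -0.47, SE 0.20, limma adjusted p = 0.338). RCOR1, a scaffold of the CoREST complex, averaged 962 in Meishan gilts, against 1170.1 in Yorkshire gilts (-0.28, SE 0.16, limma adjusted p = 0.453). For both genes all Yorkshire gilts lay above all Meishan gilts, as they did for 5.09% of all probesets. Another RCOR1 probeset had a log2 difference of 0.12. The deacetylase HDAC1 and the Sin3 complex subunit SAP30 differed by 0.18 and -0.20 on the log2 scale, each less than its SE. The breeds overlapped at the other 10 measured partners.

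Coactivators were measured for 13 of 29 genes, with a median of -0.06 and 0 at an unadjusted p under 0.05. SRA1, an RNA coactivator locus, leaned toward Meishan by 0.51, while PPARGC1A, a metabolic coactivator, leaned toward Yorkshire by -0.55 (limma adjusted p = 0.410 and 0.436). NCOA2, the p160 relative of NCOA1, and UBE3A, a ubiquitin ligase that acts with receptors, differed by -0.34 and -0.27 (limma adjusted p = 0.545 and 0.562), and other NCOA2 probesets gave 0.14 and -0.26. Among other receptors only 3 of 13 were measured, the membrane progestin receptors PAQR6, PAQR7 and PAQR8, with log2 differences of -0.18, -0.13 and -0.12.

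Chaperones and immunophilins, which hold receptors ready for hormone, were measured for 17 of 18 genes, with 12 toward Meishan, 5 toward Yorkshire and a median of 0.09. HSP90AA1, the inducible cytosolic HSP90, averaged 14354 in Meishan gilts, against 10922 in Yorkshire gilts (log2 difference 0.39, limma adjusted p = 0.364), while its other 4 probesets gave -0.15, 0.09, -0.39 and -0.13. HSPA8, the constitutive HSP70, averaged 14153 in Meishan gilts, against 9074 in Yorkshire gilts (log2 difference 0.64, limma adjusted p = 0.382), while its other 3 probesets gave 0.32, -0.25 and -0.11. STIP1, which joins the HSP70 and HSP90 machines, differed by 0.43 (limma adjusted p = 0.436). DNAJB1, an HSP40 cochaperone, lay the other way, at 1297 in Meishan and 2240 in Yorkshire (-0.79, SE 0.32, limma adjusted p = 0.316). None of these passed the test used here. The study's list does hold the brightest probesets of HSP90AA1, HSPA8 and STIP1, and also the HSP90AA1 probeset at -0.39. For HSP90AA1 and HSPA8 the lean toward Meishan was that of the brightest probeset and not of most.

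Known estrogen-responsive genes of the uterus were measured for 16 of 20, with 8 toward each breed and a median of -0.05. Dim probesets took part in that balance: RARA, LTF and TFF3, with means under 64 in both breeds, all leaned toward Meishan, and over the 13 genes with a mean log2 signal of at least 6 the median was -0.52. RARA was also assayed by quantitative RT-PCR in the study, which reports that every gene so assayed kept the direction of the arrays. IGF1, the growth factor of estrogen-stimulated stroma, averaged 1169 in Meishan gilts, against 1675 in Yorkshire gilts without overlap (log2 difference -0.52, SE 0.17, limma adjusted p = 0.229). Its other probesets gave -0.37 and 0.60. Of the 16 genes, 2 (IGF1 and PGR) had all Yorkshire gilts above all Meishan gilts, as had 5.09% of all probesets. The complement component C3 and the secreted phosphoprotein SPP1 had log2 differences of -0.88 and -1.18 (limma adjusted p = 0.334 and 0.383) with overlapping breeds. PGR, itself estrogen-responsive, is also named by the rule in this list. Genes of this list thus spread to both sides of 0 and did not share 1 direction.

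Progesterone-responsive genes were measured for 12 of 21, with 7 toward Meishan, 5 toward Yorkshire and a median of 0.01. FOXO1, a transcription factor of the secretory endometrium, averaged 1139 in Meishan gilts, against 2757 in Yorkshire gilts (log2 difference -1.28, SE 0.38, limma adjusted p = 0.196), and its other probeset, at 53.0 in Meishan gilts, against 46.4 in Yorkshire gilts, gave 0.19. IHH, a progesterone-induced morphogen of the uterine epithelium in mice, averaged 155 in Meishan gilts, against 78.0 in Yorkshire gilts (0.99, SE 0.35, limma adjusted p = 0.253), and its other probeset, under 64 in both breeds, gave -0.21. HSD17B2, which inactivates estradiol, had differences of -0.98 (limma adjusted p = 0.341) and -0.78 at its probesets, and FKBP5, a cochaperone induced by both progesterone and glucocorticoid, differences of 0.26 (limma adjusted p = 0.641) and 0.65. The measured genes of this list lay on both sides of 0.

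Glucocorticoid-responsive genes were measured for 16 of 22, with 8 toward each breed and a median of 0.00. CEBPD, a transcription factor induced by glucocorticoid, averaged 2264 in Meishan gilts, against 3802 in Yorkshire gilts (log2 difference -0.75, SE 0.20, limma adjusted p = 0.161), and its other probesets gave -0.61 and -0.82. HSD11B1, which regenerates cortisol from cortisone, averaged 423 in Meishan gilts, against 831 in Yorkshire gilts (-0.97, SE 0.27, limma adjusted p = 0.171). All Yorkshire gilts lay above all Meishan gilts for both, as they did for 5.09% of all probesets. DUSP1, a phosphatase induced by glucocorticoid, and ANXA1, an anti-inflammatory annexin, differed by -0.81 and 0.36 (limma adjusted p = 0.390 and 0.588). Only CEBPD and HSD11B1 of the 16 reached an unadjusted p under 0.05, which 14.8% of all probesets had.

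Markers of the cell types that endometrium can hold were measured beside these values. Epithelial markers (7 of 8 measured) had mean log2 signals between 11.4 and 12.2 in Meishan gilts, against 11.3 to 12.2 in Yorkshire gilts, and stromal markers (7 of 9) had 11.8 to 12.4 in Meishan gilts, against 11.9 to 12.6 in Yorkshire gilts. Both compartments of the labelled tissue were thus bright in both breeds. The stromal markers were split, with 4 toward Meishan and 3 toward Yorkshire. The breeds did not overlap at VIM and DCN, with Meishan above (log2 differences 0.47 and 0.27), and at PDGFRB, with Yorkshire above (-0.31). Of all probesets, 10.1% did not overlap. THY1 ran from 474 to 10575 among Yorkshire gilts. Endothelial markers (6 of 6) had means between 9.16 and 9.33 in Meishan gilts, against 9.36 to 9.91 in Yorkshire gilts, without overlap but with a narrow gap. Of the 6, PECAM1 leaned toward Meishan (log2 difference 0.11) and 5 leaned toward Yorkshire, from -0.09 at KDR to -0.71 at CLDN5. Single genes without overlap were CLDN5 and CDH5 (-0.58), both with Yorkshire above, which 5.09% of all probesets had. Smooth muscle markers (6 of 7) had 9.76 to 10.5 in Meishan gilts, against 10.2 to 10.6 in Yorkshire gilts, and leukocyte markers (5 of 8) had 6.88 to 7.79 in Meishan gilts, against 7.22 to 7.51 in Yorkshire gilts. Here too 5 smooth muscle and 4 leukocyte markers leaned toward Yorkshire, and 1 of each toward Meishan. Red blood cell markers (3 of 4) had 6.49 to 8.13 in Meishan gilts, against 6.83 to 7.93 in Yorkshire gilts. Trophectoderm markers (8 of 10), not all of which are particular to the conceptus, ranged between 6.41 and 7.72 in Meishan gilts, against 7.27 to 8.72 in Yorkshire gilts. Of the 8, 3 leaned toward Meishan and 5 toward Yorkshire, and TFAP2C, the 1 with an unadjusted p under 0.05, averaged 6.07 in Meishan gilts, against 51.0 in Yorkshire gilts, both under 64. KRT8 of this list is also in the epithelial list, GATA2 was bright in all gilts of both breeds, at 1228 to 1562 in Meishan gilts, against 1147 to 1464 in Yorkshire gilts, and IFNG was at 14.2 to 904 in Meishan gilts, against 33.5 to 6286 in Yorkshire gilts. The part of any of these cell types, and of the spike-in signal, in the differences of PGR, NR3C1 and NCOR1 was not tested. Mean log2 spike-in signals were 11.8 to 12.5 on Meishan arrays, against 10.7 to 11.2 on Yorkshire arrays. Breed and this hybridization difference thus cannot be told apart.

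The difference at NCOR1 probeset 1 kept its direction and nearly its size under every alternative processing, from -0.97 to -0.78 on the log2 scale, while its call did not hold still. It passed 0.1 with 6 of the alternatives, among them a floor of 32 on signals (limma adjusted p = 0.0297) and an intensity trend in the prior (limma adjusted p = 0.0311). Without any 1 of the 8 gilts its limma adjusted p ranged from 0.133 to 0.209. No other array-named probeset of the 7 genes was called under any alternative tried.

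**Figure D4:**
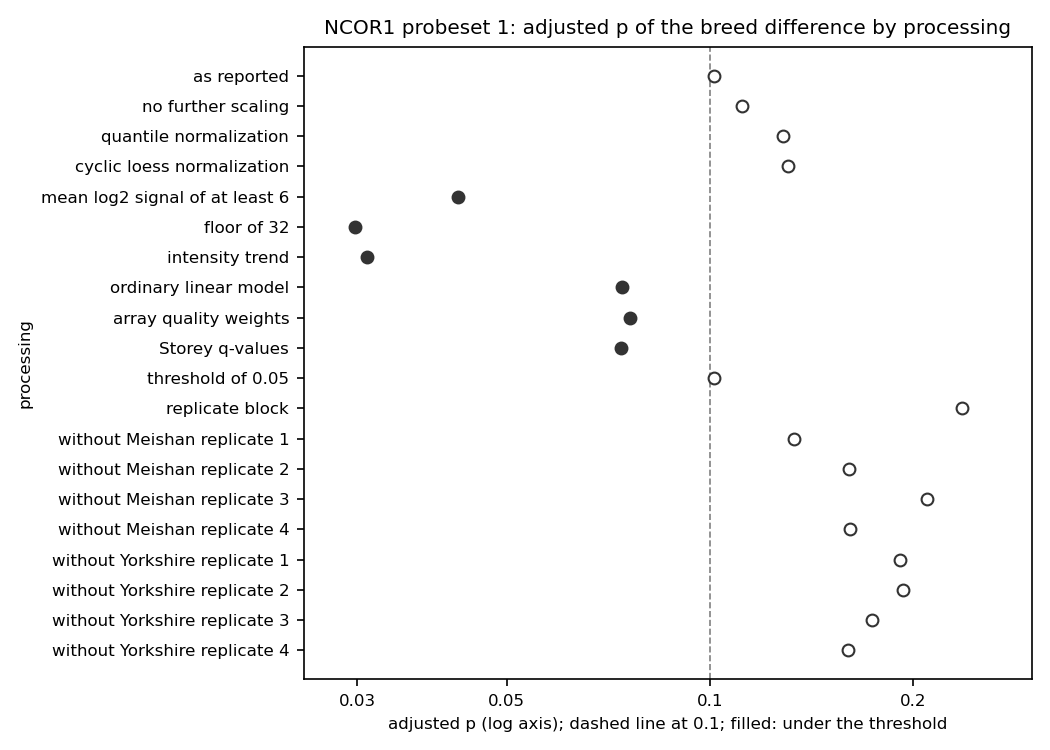
Adjusted p of the breed difference at NCOR1 probeset 1 (log axis) as reported, at the top, and under each alternative processing, with the threshold of 0.1 as a dashed line and filled points for values that pass. It is 0.101 as reported, passes under 6 alternatives and does not pass when any 1 gilt is left out.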

How the data were processed

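Total RNA from endometrium of 8 gilts on day 12 of gestation (4 Meishan, 4 Yorkshire) had been hybridized to one-colour arrays. The deposited values are linear intensities, computed by the authors in GCOS 1.2 (Affymetrix software) and scaled to a trimmed mean of 500.1 (2% of probesets off each end). The number of arrays limits precision, and detection calls were not used here. The study fitted a mixed model to natural logs and used q-values.

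Of 24123 probesets, 124 controls were removed. Log2 signals were centred on each array's median and compared with limma 3.58.1 in R 4.3.3 (empirical Bayes, Benjamini-Hochberg over 23999 probesets, called at an adjusted p under 0.1). The procedure was tested on simulated data. Members were matched by gene symbol in the array's annotation (all 7 symbols are those of RefSeq) or in the study's supplementary list, which was used for 2502 probesets. Authors' fold changes, p- and q-values in that list were not used. Genes of a list were taken at their brightest probeset with 1 symbol, and those with the lowest p (up to 4 per list) were named, together with the 3 genes most alike in pattern to each member. Members and lists were chosen with earlier results of these data known.

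Alternatives were quantile normalization, cyclic loess, no centring, a minimum mean log2 signal of 6, a floor of 32, an intensity trend, weights for array quality, a linear model without moderation, a threshold of 0.05, q-values after Storey, a replicate block, leaving out each gilt, and the mean of all probesets of a listed gene.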

Additional observations from a re-analysis of the deposited data

Results flagged for a closer look

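In 40 sets of 4 gilts (20 probesets in 2 breeds), 3 held a gilt far from the others of its breed by Dixon's criterion, which chance meets in about 1 of 20 sets. NR3C1 probeset 3 was 17.0 in Yorkshire 4, where the nearest Yorkshire gilt had 81.7. NCOR1 probeset 2 was 77.9 in Yorkshire 3, where the nearest had 191. NCOR1 probeset 4 was 1908 in Meishan 2, where the nearest Meishan gilt had 1584. These lie at 3 different gilts, and NCOR1 probeset 1 and PGR had none.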

How the results depend on the processing

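Of 319 alternative values for the 17 array-named probesets, 288 kept direction and side of the threshold, 6 were called only under the alternative (all NCOR1 probeset 1) and 25 turned direction, in 9 probesets with differences near 0. The cause was not tested.

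Over all probesets, 218 calls became 668 with a mean log2 signal of at least 6, 863 with a floor of 32, 626 with a trend, 497 with array weights, 532 with Storey q-values, 60 at 0.05 and 72 (without Meishan 4) to 205 (without Meishan 1) without 1 gilt. Member calls became 1 with that minimum, the floor, the trend, the ordinary model, the weights and Storey q-values. List calls became 2 with the minimum (CEBPD, HSD11B1), 2 with the floor (CEBPD, IGF1), 3 with the trend (CEBPD, FOXO1, HSD11B1), and 0 to 1 without 1 gilt (FOXO1, without Yorkshire 4).

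Labels state no pairing of same-numbered gilts, and gilts were treated as unpaired. Deviations of same-numbered gilts over all probesets correlated at -0.0561, 0.0890, 0.00105 and 0.0407, which does not exclude a link at single probesets. The replicate block gave 0 calls over all probesets (3327 at an unadjusted p under 0.05).

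Turned log2 differences were 0.040 with the floor and 0.16 with weights at ESR2, 0.011 with quantile and 0.027 with cyclic loess normalization at NCOA1 probeset 3, and -0.014 with weights at NCOA1 probeset 4. Without 1 gilt the ranges were -0.49 to 0.11 for ESR1, -0.92 to 0.28 for ESR2, -0.15 to 0.22 and -0.69 to 0.31 for NR3C1 probesets 1 and 3, -0.094 to 0.42 and -0.067 to 0.46 for NCOR1 probesets 2 and 3, and -0.049 to 0.16 and -0.021 to 0.14 for NCOA1 probesets 1 and 4. List medians moved by more than 1 SD between gilts of a breed for coactivators (-0.15 with all probesets averaged, -0.15 to 0.048 without 1 gilt), estrogen-responsive genes (-0.52 with the minimum, over 13 genes) and glucocorticoid-responsive genes (-0.049 to 0.10 without 1 gilt). Medians of other lists moved by less than that but also crossed 0: without 1 gilt, chaperones had -0.05 to 0.29, corepressor complexes -0.15 to 0.03, and progesterone-responsive genes -0.07 to 0.06. Dim probesets such as ESR2 limit what the arrays can resolve.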
